A study of Mus musculus with 6 samples.

Results

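The potassium, sodium and calcium channel genes were the symbols of the count files that begin with Kcn and go on with 1 letter and a number, that name a sodium channel alpha subunit (Scn, a number and a), or that begin with Cacna1 or Cacna2. This gave 104 genes of the 24453 symbols in the files, all of which were found in the annotation. The libraries held RNA of interfollicular epidermis sorted from mouse back skin on postnatal day 0 by surface EpCAM, Sca1 and a high level of α6-integrin. There were 3 control libraries and 3 libraries from Eed conditional knockout mice (Eed cKO, genotype given as Eed-/-). Eed encodes a subunit that the Polycomb methyltransferase of histone H3 needs in order to work. The sources used here give neither the Cre driver, the deleted exons nor the alleles of the mice labelled as control. Whether each library came from a separate animal is not stated, so p-values measure the spread between these libraries, which may be technical.

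Voltage-gated channels open when the membrane depolarises and carry the currents of nerve and muscle, sodium channels driving the action potential, calcium channels letting in the calcium that triggers release or contraction, and potassium channels ending the signal. Inward rectifier and tandem pore domain potassium channels instead set the resting potential of most cells, epithelial cells included. Keratinocytes respond to extracellular calcium, and their resting potential is known to depend on potassium conductance. Many channel genes of nerve and muscle are Polycomb targets in other tissues, and the comparison asks which of them change when Eed is lost.

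Total counts ran from 20998149 to 29998531 per library, of which 9103 to 11817 fell on the channel genes. The basal epidermal markers Krt5, Krt14, Trp63, Itga6, Epcam, Ly6a, Col17a1 and Itgb4 summed to 32860 to 39010 CPM (a gene's counts scaled to the size of the library) in control and 28803 to 37731 CPM in Eed cKO, and none of them was at 0. Of these 8, 1 was called: Epcam, a marker of the sort, was higher in Eed cKO (log2 fold change 0.77, edgeR adjusted p 0.0433). Trp63 and Col17a1 were lower in every Eed cKO library without being called. Eed itself was at 45.1, 41.1 and 53.1 CPM in control libraries 1, 2 and 3 and at 37.0, 33.7 and 29.2 CPM in Eed cKO libraries 1, 2 and 3. Every Eed cKO value lay below every control value, but the change was not called (log2 fold change -0.48 ± 0.19, SE; edgeR adjusted p 0.252). Since the deleted exons are not stated, this whole-gene count may include reads from outside them. These are bulk samples, so fewer cells of a type and less RNA per cell cannot be told apart.

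Only 2 of the channel genes passed the test, both higher in Eed cKO: Cacna1h, which encodes a low-voltage-activated (T-type) calcium channel, and Kcna1, which encodes a delayed-rectifier potassium channel of axons. No channel gene silent in control came on. Of the 104 genes, 46 had enough counts to be tested with edgeR's quasi-likelihood test, with Benjamini-Hochberg adjustment over the 14700 genes that passed the filter and a call at 0.05. Of the 46, 2 were higher, 0 were lower and 44 did not pass. Over all genes tested 3.39% were called higher and 0.816% lower, so 2 of 46 (4.35%) is near the background. At an unadjusted edgeR p under 0.05, 7 of the 46 were higher, a larger share than the 8.63% of all genes. At the same limit 2 of the 46 were lower, a smaller share than the 6.24% of all genes. DESeq2 called 5 of 73 higher and 1 lower, where it called 4.90% of all genes higher and 273 of 16601 lower. With no low-count filter edgeR called 6 of 99 higher and 1 lower, against 3.75% of all genes called higher and 257 of 19662 lower. Cacna1h and Kcna1 were among the higher genes in both.

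**Figure D1:**
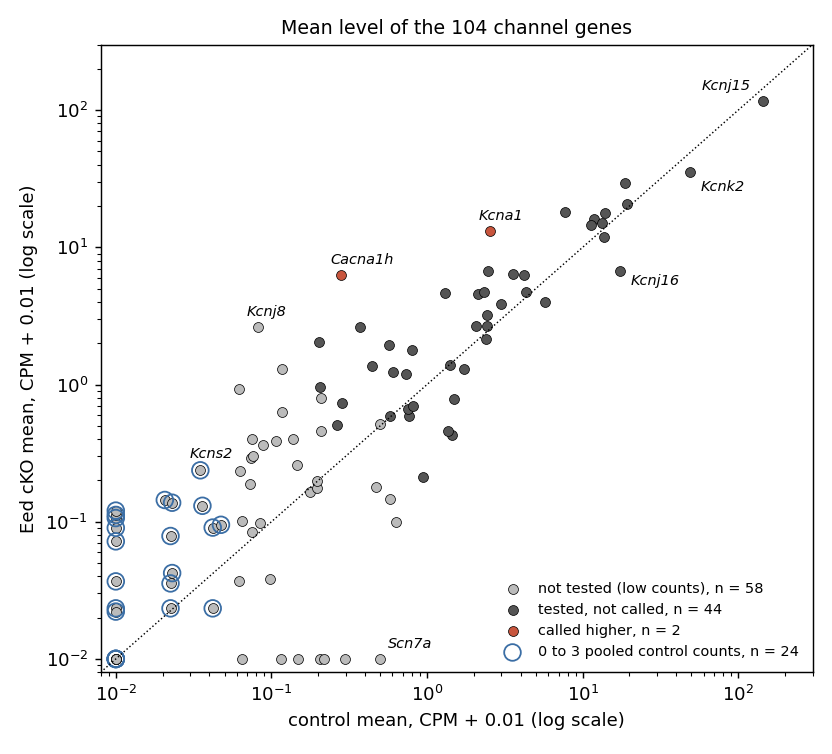
Mean level of each of the 104 channel genes in control (x axis) and Eed cKO (y axis), in CPM plus 0.01 on log scales, with n = 3 libraries in each group. Cacna1h and Kcna1 (red) are the 2 genes called higher, the blue rings at lower left are the 24 genes with 0 to 3 pooled control counts, and the dotted line marks equal levels.

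Cacna1h lies on chromosome 17 (25374285 to 25433783, minus strand, GRCm38). It had 0.599, 0.0959 and 0.117 CPM in control libraries 1, 2 and 3 (16, 3 and 3 counts), and 5.03, 4.46 and 9.44 CPM in Eed cKO libraries 1, 2 and 3 (138, 111 and 195 counts). The groups did not overlap, and control 1 was the highest of the control libraries. The mean went from 0.271 ± 0.284 to 6.31 ± 2.73 CPM (SD, n = 3 each), with a log2 fold change of 4.53 ± 0.74 (SE; edgeR adjusted p 0.00270). The call held in each fit without 1 library, and the log2 fold change was 5.83 without control 1. Cacna1h shares 158 exonic bases with Tpsg1, a mast cell protease gene on the other strand, which had no count in any library. Of its neighbours on the other side, Tekt4 had 4 control counts and none in Eed cKO, and Sstr5 had no count at all.

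The other T-type genes did not pass. Cacna1g was at 1.61, 4.70 and 1.05 CPM in control and 10.1, 5.30 and 4.89 CPM in Eed cKO. The groups did not overlap, with the gap between control 2 and Eed cKO 3 the narrowest. Its log2 fold change of 1.45 ± 0.56 (SE) was not called (edgeR adjusted p 0.220). It was called in 1 of 15 fits, the one without control 2 (edgeR adjusted p 0.0363). Without Eed cKO 1 the log2 fold change was 1.05 (edgeR adjusted p 0.468). Cacna1i, the third T-type gene, had 3 counts in control and 5 in Eed cKO.

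Kcna1 lies on chromosome 6 (126640397 to 126646384, minus strand, GRCm38) and shares no exonic base with another gene. It was at 3.70, 1.02 and 2.85 CPM in control libraries 1, 2 and 3 (99, 32 and 73 counts) and at 13.3, 12.9 and 13.2 CPM in Eed cKO libraries 1, 2 and 3 (364, 321 and 273 counts). The Eed cKO libraries were nearly equal, and the lowest of them was over 3 times the highest control library. The mean rose from 2.53 ± 1.37 to 13.1 ± 0.206 CPM (SD, n = 3 each), a log2 fold change of 2.38 ± 0.43 (SE; edgeR adjusted p 0.00554). The call held in each fit without 1 library, with log2 fold changes from 2.01 to 2.76.

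Kcna1 stands between 2 close relatives, Kcna5 (known from the heart) 104985 bases away on one side and Kcna6 61945 bases away on the other. Neither had enough counts to be tested. Kcna5 had 22, 1 and 0 counts in control and none in Eed cKO, and Kcna6 had 0, 3 and 0 counts in control and 0, 1 and 0 in Eed cKO. The selectivity filter shows how like these genes are. The stretches below are coding strand from GENCODE transcripts on GRCm38, 5′ to 3′, with the codons of the filter in capitals, and are shown because reads of such relatives could be confused.
Kcna1, chr6:126642204-126642266, minus strand: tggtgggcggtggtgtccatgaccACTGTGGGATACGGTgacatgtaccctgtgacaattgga
Kcna5, chr6:126533721-126533783, minus strand: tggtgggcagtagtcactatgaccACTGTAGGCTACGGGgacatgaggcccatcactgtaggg
Kcna6, chr6:126738623-126738685, minus strand: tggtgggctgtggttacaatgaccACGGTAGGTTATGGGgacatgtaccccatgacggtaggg
Over these 63 bases Kcna1 matched Kcna5 at 45 and Kcna6 at 48. No stretch of 100 bases, the read length, of any Kcna1 transcript occurred in the transcripts of another gene on either strand.

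**Figure D2:**
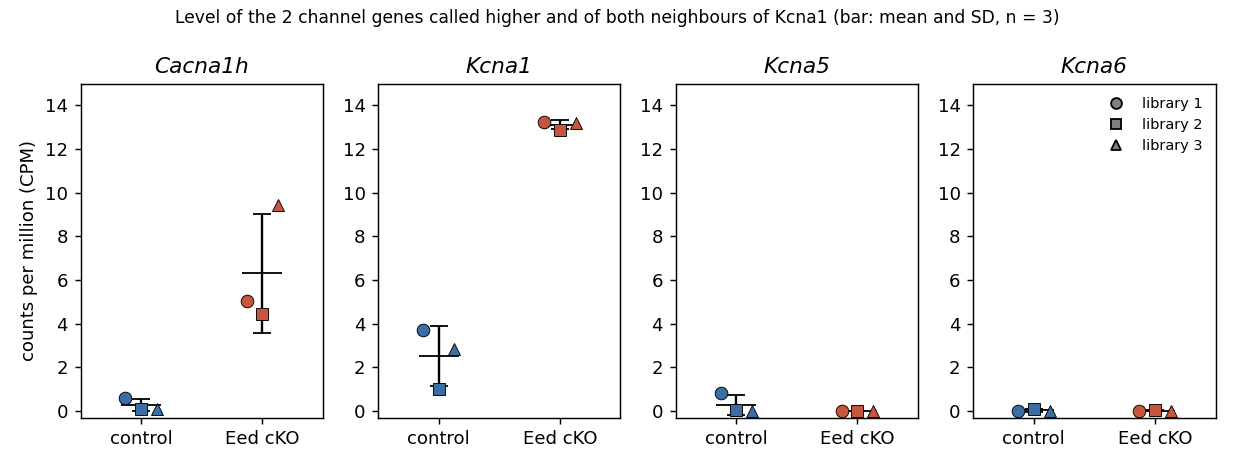
Level in CPM of Cacna1h, Kcna1 and the genes on either side of Kcna1, by group, with 1 symbol for each library number and a bar for the mean and SD (n = 3). Cacna1h and Kcna1 were above every control library in all 3 Eed cKO libraries, while Kcna5 and Kcna6 stayed under 1 CPM in all 6.

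Of the 17 pore-forming genes of the Kcna, Kcnb, Kcnc and Kcnd families, 6 were tested and only Kcna1 passed. Kcna7, a muscle relative of Kcna1, was at 0.262, 0 and 0.312 CPM in control and 0.692, 1.85 and 3.53 CPM in Eed cKO. The groups did not overlap, but the Eed cKO libraries differed widely, and the change was not called (log2 fold change 3.39 ± 1.10, SE; edgeR adjusted p 0.120), although DESeq2 and edgeR with no low-count filter called it higher. The A-type channel genes Kcnd1 and Kcnd3 had negative log2 fold changes of -2.15 and -0.94 (edgeR adjusted p 0.390 and 0.803). Control 2 had no Kcnd3 count, against 76 and 41 in control 1 and 3. Their relative Kcnd2 did not share this direction, with 7, 1 and 3 counts in control and 16, 4 and 0 in Eed cKO, too few to be tested.

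Modifier subunits (Kcnf, Kcng, Kcns and Kcnv) form no channel alone and alter the gating of others. Of these 10 genes, 2 were tested and 0 passed. Kcns3, the most abundant, was at 8.68, 18.1 and 14.2 CPM in control and 8.53, 13.2 and 14.0 CPM in Eed cKO, with wide overlap (log2 fold change -0.20, 95% interval -0.89 to 0.49). Kcng3 was not tested, with 6, 3 and 0 counts in control and 1, 17 and 65 in Eed cKO. Among the 8 Kcnh genes, relatives of the cardiac channel gene Kcnh2, 4 were tested and 0 passed. Kcnh2 itself was at 1.01, 0.479 and 0.195 CPM in control and 3.83, 1.33 and 0.678 CPM in Eed cKO, which overlapped. Of the 5 Kcnq genes, 2 were tested and 0 passed.

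Channels opened by intracellular calcium (Kcnn) or sodium (Kcnt) were weakly expressed, as was their sperm relative Kcnu1, which responds to voltage and alkaline pH. Of these 7 genes 5 were tested and 0 passed. Kcnn3 was at 2.92, 1.79 and 1.64 CPM in control and 3.10, 4.13 and 6.34 CPM in Eed cKO, without overlap but with a narrow gap (log2 fold change 1.09 ± 0.51, SE; edgeR adjusted p 0.339). Kcnn4, known from lymphocytes and red cells, lay the other way, at 1.20, 0.863 and 1.99 CPM in control and 0.474, 0.722 and 0.145 CPM in Eed cKO. Its groups did not overlap either, and it was not called (log2 fold change -1.57 ± 0.87, SE; edgeR adjusted p 0.447). The immune markers Ptprc, Cd3e, Cd207, H2-Ab1 and Csf1r summed to 46.9 to 193 CPM in control and 29.5 to 145 CPM in Eed cKO, with 0 of 3 tested called and Cd207 at 0 in Eed cKO, and their part in the Kcnn4 values was not tested.

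None of the 8 most abundant channel genes passed the test. Of these, 7 encode inward rectifier or tandem pore domain channels, and Kcns3 encodes a modifier subunit. Levels between genes are compared here as CPM per kilobase of exon. In control, Kcnj15, an inward rectifier, led with 22.7 ± 1.38 CPM per kilobase (SD, n = 3). It was followed by Kcnj13 with 10.4 ± 1.85, Kcnk2 with 9.89 ± 2.21, Kcnk1 with 8.35 ± 2.91, Kcnj16 with 4.39 ± 2.14, Kcns3 with 4.31 ± 1.49, Kcnj2 with 3.53 ± 0.978 and Kcnk6 with 3.36 ± 0.349 CPM per kilobase. Kcnj15 stood above the next gene by more than their spread, whereas Kcnj13, Kcnk2 and Kcnk1 lay within 1 SD of their neighbours among these 3, and the last 4 likewise among themselves. Kcnj13 shares 623 of its 1270 exonic bases with Gigyf2, so its level is uncertain. Kcnk2 and Kcnk1 share 604 and 179 exonic bases with A430027H14Rik and Gm45875.

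**Figure D3:**
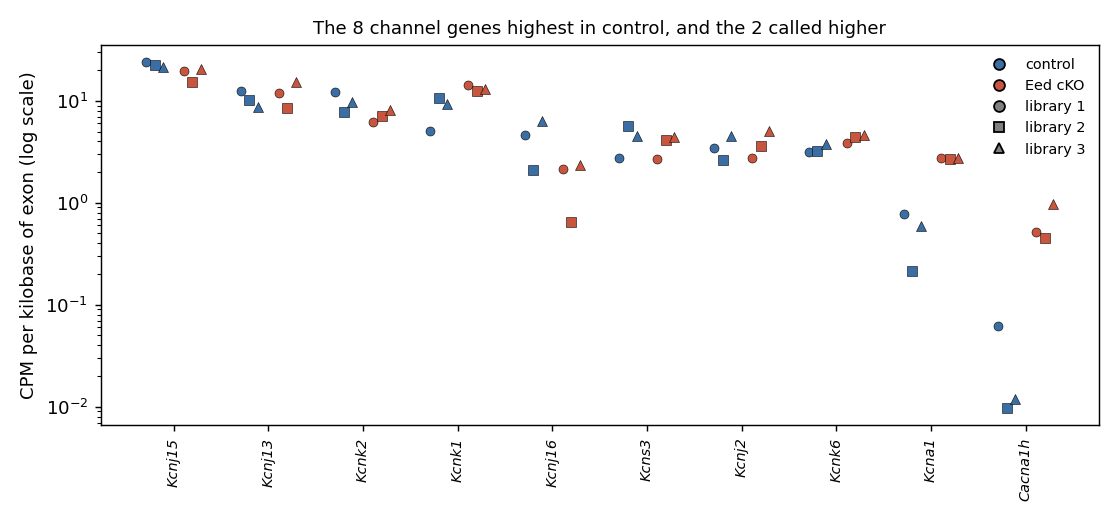
CPM per kilobase of exon (log scale) in each library for the 8 channel genes highest in control and, at the right, Kcna1 and Cacna1h, in order of the control mean, with control in blue and Eed cKO in red and 1 symbol for each library number. Kcnj15 is highest in all 6 libraries, and the called genes Kcna1 and Cacna1h lie below the other 8 in control.

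Kcnj15 was at 152, 143 and 135 CPM in control and 125, 97.0 and 129 CPM in Eed cKO. Each Eed cKO library lay below each control library, by a narrow margin in Eed cKO 3, and the change was not called (log2 fold change -0.29, 95% interval -0.65 to 0.07; edgeR adjusted p 0.465). Kcnj16, whose product joins other inward rectifier subunits rather than acting alone, was at 18.3, 8.34 and 25.1 CPM in control and 8.42, 2.53 and 9.20 CPM in Eed cKO. Control 2 overlapped the Eed cKO libraries, and the gene was not called (log2 fold change -1.36 ± 0.46, SE; edgeR adjusted p 0.143), although DESeq2 (adjusted p 0.0434) and edgeR with no low-count filter called it lower. Kcnj2, 38196 bases away on chromosome 11, was at 19.2 ± 5.33 CPM in control and 20.7 ± 6.31 CPM in Eed cKO (log2 fold change 0.10, 95% interval -0.49 to 0.70).

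Kcnj8, an inward rectifier known from pericytes and smooth muscle, had 3, 2 and 1 counts in control and 200, 0 and 11 counts in Eed cKO libraries 1, 2 and 3. Almost all of its signal thus lay in Eed cKO 1, and it was not tested. DESeq2 called it higher (DESeq2 adjusted p 0.00320). Its partner Abcc9 was at 0.765, 0.321 and 2.08 CPM in the same Eed cKO libraries, highest in Eed cKO 3. Markers of pericytes and smooth muscle (Acta2, Myh11, Rgs5, Des and Pdgfrb) summed to 13.4, 11.4 and 17.3 CPM in Eed cKO libraries 1, 2 and 3 and 8.56 to 9.73 CPM in control, with 0 of 4 tested called and none at 0 in either group. Of these, only Pdgfrb was highest in Eed cKO 1, with 52, 18 and 26 counts in Eed cKO and 7, 15 and 5 in control. Among the Eed cKO libraries, Acta2, Rgs5 and Des were highest in Eed cKO 3 and Myh11 in Eed cKO 2. Endothelial markers summed to 32.7, 6.06 and 8.28 CPM in the Eed cKO libraries and to 28.8, 5.02 and 33.9 CPM in the control libraries, of which 1 and 3 had 3 and 1 Kcnj8 counts. The part of either cell type in the Kcnj8 values was not tested.

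Tandem pore domain channels carry background potassium current. Of 14 Kcnk genes 7 were tested and 0 passed. Kcnk2, which responds to stretch and fatty acids, was at 60.1, 38.3 and 48.3 CPM in control and 30.4, 34.9 and 40.0 CPM in Eed cKO, overlapping at control 2 (log2 fold change -0.48, 95% interval -0.93 to -0.02; edgeR adjusted p 0.304). Kcnk1 was at 11.4, 23.9 and 20.7 CPM in control and 32.1, 27.7 and 29.1 CPM in Eed cKO, all above control (log2 fold change 0.67, 95% interval 0.10 to 1.23; edgeR adjusted p 0.231). Kcnk6 was also higher in every Eed cKO library, at 14.0 ± 1.45 against 17.8 ± 1.70 CPM, but the difference was small (log2 fold change 0.35, 95% interval -0.15 to 0.86). The intervals of Kcnk2, Kcnk6, Kcnj2 and Kcnj15 all lie within 1 on the log2 scale, so changes of these genes beyond 2-fold are outside them. Of the 4 Kcne genes, auxiliary subunits with a single membrane span, 2 were tested and 0 passed.

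**Figure D4:**
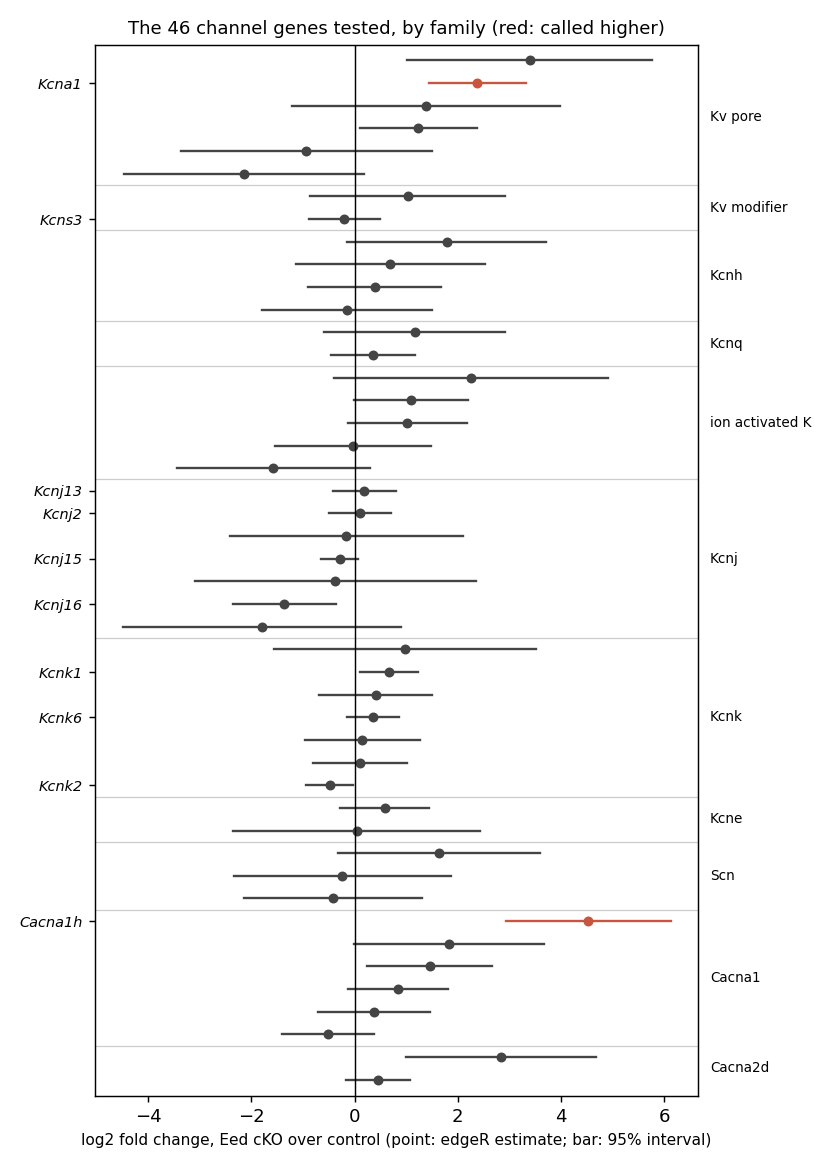
Log2 fold change of Eed cKO over control (point) with its 95% interval (bar) from edgeR for the 46 channel genes tested, grouped by family between grey lines, with the names of the called genes and of the 8 highest in control. Only Cacna1h and Kcna1 (red) were called, and the bars of the abundant Kcnj15 and Kcnk6 are narrower than that of Cacna1h.

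Sodium channel alpha subunits were weakly expressed. Of the 10 Scn genes 3 were tested and 0 passed, and their summed level was 3.71 ± 2.54 CPM in control and 3.82 ± 1.45 CPM in Eed cKO. Scn8a, a main channel of neurons, was at 0.860, 0.128 and 0.312 CPM in control and 2.08, 1.08 and 0.871 CPM in Eed cKO, separated by a narrow gap (log2 fold change 1.63 ± 0.91, SE; edgeR adjusted p 0.452). For the fetal brain gene Scn3a the log2 fold change was -0.41, which edgeR did not call (adjusted p 0.896). Scn10a and Scn11a, channels of pain-sensing neurons, had no control count and 6 and 9 counts in Eed cKO, nearly all in 1 library each.

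Among the other calcium channel genes, the auxiliary subunit gene Cacna2d1 was at 0.636, 0.0959 and 0.351 CPM in control and 1.97, 1.605 and 4.21 CPM in Eed cKO. The groups did not overlap, and edgeR did not call it (log2 fold change 2.84 ± 0.86, SE; edgeR adjusted p 0.0908), while DESeq2 and edgeR with no low-count filter did. Cacna2d2, the most abundant of the Cacna1 and Cacna2d genes in CPM, was at 11.8 ± 4.16 CPM in control and 16.1 ± 1.05 CPM in Eed cKO (log2 fold change 0.45, 95% interval -0.17 to 1.08). Of the L-type genes, Cacna1c had a log2 fold change of 0.37 and Cacna1d one of -0.51 (edgeR adjusted p 0.831 and 0.657). Cacna1s, the channel of skeletal muscle, had 7 counts in control and 6 in Eed cKO. Cacna1f, known from the retina, had 6, 3 and 0 counts in control and 33, 8 and 7 in Eed cKO, without overlap but too few to be tested. Cacna1e, an R-type channel gene of neurons, was at 1.46, 2.37 and 0.0391 CPM in control and 4.01, 2.29 and 7.60 CPM in Eed cKO, which overlapped (log2 fold change 1.83, edgeR adjusted p 0.341). The 10 Cacna1 genes together had 16.6 ± 4.37 CPM in control and 33.1 ± 5.87 CPM in Eed cKO, of which Cacna1h gave 6.31 CPM.

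Across the 46 genes tested, 31 (67.4%) had a positive log2 fold change, against 48.7% of all genes tested, and the median was 0.38 against -0.01. Groups did not overlap in 10 genes that were higher in Eed cKO (21.7%) and 2 that were lower (4.35%), where the background over all genes tested was 11.0% and 9.22%. A gene can pass the filter on low counts through the group where it is high, so these figures describe the genes that passed and not the 104. The median biological coefficient of variation was 0.514 for the 46 genes and 0.245 for all genes tested.

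Channel genes silent in control stayed at or near 0. Silent was taken as 0 to 3 counts pooled over the 3 control libraries, and on as at least 10 counts in every Eed cKO library. There were 24 silent genes (23.1% of the 104, against 30.6% of all symbols), 13 of them with no control count. None of the 24 came on, which allows a share of up to 12.5% by counting error alone. Among all 7491 symbols silent in control, 57 came on (0.761%), so 0 of 24 is near the background and says nothing particular of channels. No silent gene had more than 8 counts in any Eed cKO library, and 12 of the 24 were at 0 to 3 pooled counts in Eed cKO too. The 5 with no count in any of the 6 libraries were Kcna10, Kcnh5, Kcnj1, Kcnk15 and Kcnk9.

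Nearest to the threshold was Kcns2, a modifier subunit gene, with 2, 0 and 0 counts in control and 7, 7 and 3 in Eed cKO. Kcna3, a potassium channel gene of T cells, followed with 0, 1 and 0 counts in control and 2, 7 and 1 in Eed cKO. Both were detected in all 3 Eed cKO libraries, at counts too low to be tested, and no gene lay inside the threshold. Summed over the 24 genes there were 8, 7 and 4 counts in control and 44, 49 and 15 counts in Eed cKO, a direction that choosing genes by a low control count favours. With the groups exchanged, 21 genes were silent in Eed cKO and 0 of them had 10 counts in every control library (background 0.0419%). Those 21 genes had 50, 68 and 26 counts in control and 3, 8 and 3 in Eed cKO.

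The 9 genes silent in Eed cKO but not in control included 7 with no Eed cKO count. Scn7a, an atypical sodium channel gene, had 11, 32 and 1 counts in control, the potassium channel gene Kcnq3 had 7, 10 and 1, and Kcna5 had 22, 1 and 0. Kcnc2 (15 counts) and Kcne1 (13 counts) each had theirs in a single control library. All of these genes had too few counts to be tested.

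**Figure D5:**
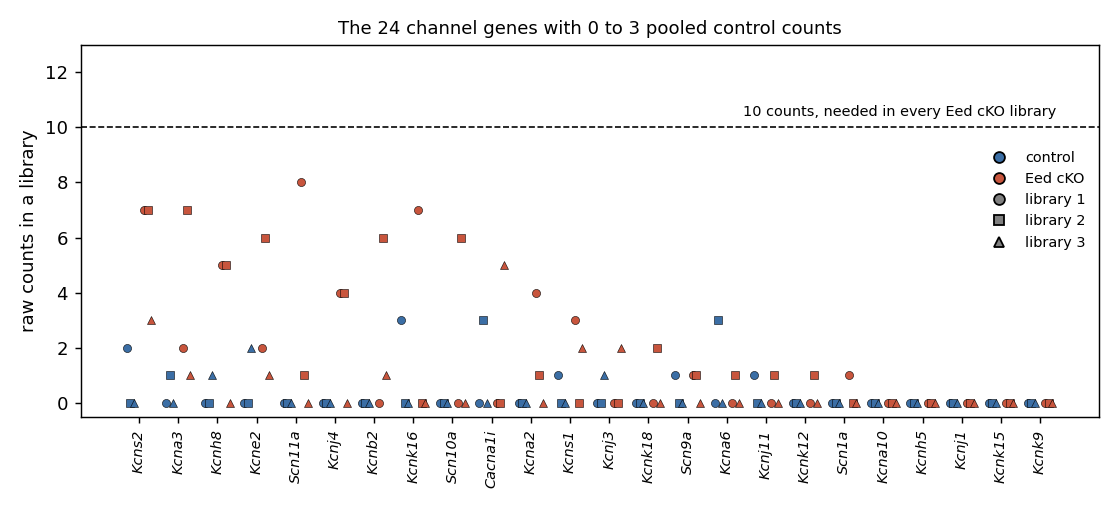
Raw counts in each library for the 24 channel genes with 0 to 3 pooled control counts, ordered by their pooled Eed cKO counts, with control in blue, Eed cKO in red and 1 symbol for each library number. Every point lies below the dashed line at 10 counts, with 8 counts of Scn11a in Eed cKO 1 the highest.

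Silent channel genes did not share 1 kind of promoter. RefSeq promoter windows (GRCm38.p6) were at hand for 20 of the 24 silent genes and for 22 of the 30 channel genes at 1 CPM or more in control, but for neither Cacna1h nor Kcna1. In the 250 bases before the start, silent channel genes held a median of 8.5 CpG dinucleotides (range 0 to 35), and the expressed ones 6.5 (range 0 to 34). All 4927 silent genes with a window had a median of 2, and the 39 of these that came on in Eed cKO one of 18. All 10162 genes at 1 CPM or more in control with a window had a median of 16. The windows of the most abundant channel gene and of the silent gene with the most CpG are shown as a CpG-poor and a CpG-rich example, with each CpG in capitals.
Kcnj15, chr16:95257308-95257557, plus strand: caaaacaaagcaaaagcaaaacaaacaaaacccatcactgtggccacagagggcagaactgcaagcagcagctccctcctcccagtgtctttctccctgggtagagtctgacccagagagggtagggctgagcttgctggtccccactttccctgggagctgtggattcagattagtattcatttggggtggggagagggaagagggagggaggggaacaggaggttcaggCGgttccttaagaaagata
Kcnj4, chr15:79505242-79505491, minus strand: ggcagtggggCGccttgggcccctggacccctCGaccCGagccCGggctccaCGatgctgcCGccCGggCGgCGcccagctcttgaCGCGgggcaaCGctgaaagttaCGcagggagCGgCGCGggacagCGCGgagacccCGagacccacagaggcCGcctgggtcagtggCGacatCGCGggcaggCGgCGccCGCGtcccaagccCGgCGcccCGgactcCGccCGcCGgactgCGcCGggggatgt
The Kcnj15 window held 1 CpG and that of Kcnj4, an inward rectifier of brain, 35. Kcnj4 had no control count and 4, 4 and 0 counts in Eed cKO. On either strand GGGCGG, the core of the Sp factor motif, occurred in 8 of the 20 silent (40.0%) and 8 of the 22 expressed windows (36.4%). It occurred in 14.9% of the windows of all silent genes and 58.9% of those of all genes at 1 CPM or more. Over all 17600 windows the share was 43.0%. TATAAA occurred in 0 of the 20 and 3 of the 22 (13.6%). Its share was 23.2% for all silent genes, 6.53% for all genes at 1 CPM or more and 12.0% for all windows. The core of the REST element was in none of the 74 windows of channel genes and in 1 of all windows.

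Genes whose products join or resemble these channels were counted beside the same background of 3.39% called higher and 0.816% lower. Of 13 tested partners of potassium channels, 1 rose, 0 fell and 12 did not pass. It was Abcc8, the sulphonylurea receptor of ATP-sensitive potassium channels, at 0.112, 0.0320 and 0.156 CPM in control and 3.21, 1.77 and 0.775 CPM in Eed cKO, without overlap (log2 fold change 4.22 ± 1.00, SE; edgeR adjusted p 0.0278). Kcnj11, which encodes the pore of the same channel, had 1 count in each group. Of 6 tested sodium channel partners and relatives 0 passed, and the epithelial sodium channel genes Scnn1a (mean 6.96 in control and 14.6 CPM in Eed cKO) and Scnn1b (mean 6.67 and 13.2 CPM) had edgeR adjusted p of 0.120 and 0.110. Of 16 tested calcium channel partners and calcium release channels and of 15 tested TRP, HCN and Piezo channels 0 passed. The heat-sensing channel Trpv3 of keratinocytes had a mean of 8.21 CPM in control and 16.7 CPM in Eed cKO (edgeR adjusted p 0.0843).

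Some markers of other cell types differed in the same direction as Cacna1h and Kcna1. The Merkel cell markers summed to 0.469 to 4.63 CPM in control and 11.2 to 15.4 CPM in Eed cKO, with 2 of 6 tested called higher (Sox2 and Isl1). Atoh1, Sox2 and Isl1 had no control count. Krt8, Syp, Rab3c and Chga overlapped between groups, and Chga had 17 counts in control and 7 in Eed cKO. Of 8 neuronal markers, 0 of 3 tested passed, and the sum of the 8 was 0.234 to 1.63 CPM in control and 2.69 to 6.39 CPM in Eed cKO. Only Snap25 was higher in every Eed cKO library, while Tubb3 and Elavl3 overlapped. The neurofilament and peripherin genes Nefl and Prph had no count in any library. Schwann cell markers overlapped between groups (19.8 to 38.9 against 30.5 to 36.9 CPM, 0 of 4 tested called), and skeletal muscle markers were lower in Eed cKO (13.8 to 16.6 against 9.55 to 11.5 CPM, 0 of 4 tested called). Hair follicle markers were higher in every Eed cKO library (80.2 to 155 against 179 to 223 CPM, 0 of 4 tested called), Lhx2 and Sox9 without overlap and Lgr5 and Shh overlapping. Fibroblast markers had the highest sum outside the basal epidermis, 385 to 579 CPM in control and 566 to 649 CPM in Eed cKO. Their sums overlapped (0 of 6 tested called). Melanocyte markers overlapped too, at 5.78 to 21.5 against 7.36 to 13.7 CPM (0 of 3 tested called). The part of such cells in the Cacna1h, Kcna1 and Abcc8 values was not tested.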

How the data were processed

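Per the labels' protocols, 10 ng of RNA was amplified and read as 100-base single ends. The authors deposited unnormalised counts, with a file of gene symbols for every library. Among the tools in the submitters' processing notes are HTSeq 0.6.1 and TopHat2 2.0.13, as well as DESeq2 1.6.3 and Cufflinks 2.2.1; the build is mm10. The sources used here state neither annotation nor strand setting, so overlapping genes have uncertain counts.

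From these counts, edgeR 4.0.16 in R 4.3.3 kept 14700 genes (filterByExpr on the group), scaled libraries by TMM and tested genotype alone with its quasi-likelihood test and Benjamini-Hochberg adjustment over all genes tested (threshold 0.05). CPM values are TMM-normalised. Intervals of 95% for log2 fold changes come from that fit. Limits on shares cover counting error only. The fit was tested on simulated data with the variation common to all genes tested, which is below that of most channel genes tested. That check thus does not show which changes of these channel genes the test would miss.

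The channel genes and the lists were chosen with earlier results of these data known. Named by rule were the called genes, the silent genes that came on (none), the 8 highest per kilobase of exon in control, the 2 nearest outside the on threshold (none lay inside), and Eed; other genes were chosen after their values were seen. Exon lengths and positions are from GENCODE M21 (GRCm38, the assembly of mm10), promoter windows from RefSeq. Some genes are not reported here by name. A planned print of protein pore sequences was not made. Alternatives tried were scaling by RLE or upper quartile, 2 other filters, DESeq2 1.42.0, limma-voom (limma 3.58.1), robust dispersion, a replicate block, other limits for silent and on, thinning, and leaving out each library.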

Additional observations from a re-analysis of the deposited data

How the results depend on the processing

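Cacna1h and Kcna1 were called higher under all 14 alternatives fitted, DESeq2 and limma-voom included, with log2 fold changes of 4.12 to 5.83 and of 2.01 to 2.76. The count of channel genes higher was 6 of 99 with no low-count filter (3.75% of all genes), 5 of 73 with DESeq2 (4.90%) and 2 to 3 of 49 to 55 when 1 library was left out (1.99% to 3.02%). The count lower was 1 without a filter, with DESeq2 and with the replicate block, Kcnj16 each time, and 0 when any 1 library was left out. Over all genes 257 of 19662 were lower without a filter, 273 of 16601 with DESeq2 and 269 of 14700 with the replicate block. With the replicate block 3 of 46 genes were higher (4.59% of all genes). Libraries with the same number were not stated to be paired: the correlations of their deviations from the group means were 0.29, 0.11 and 0.02 for numbers 1, 2 and 3, and not every library correlated best with its own number. The count of silent genes that came on was 0 under each of the 12 alternatives tried. The reverse count was 0 to 1 when 1 library was left out (Scn7a without control 3, Kcnd1 without Eed cKO 1). Among the named genes never called, the log2 fold change changed sign when 1 library was left out: Kcnj13 ran from -0.0276 (without Eed cKO 3) to 0.394, Kcns3 from -0.443 to 0.0718 (without control 2), and Kcnj2 from -0.155 (without Eed cKO 3, and -0.0598 without control 2) to 0.327. The cause was not tested. Depth limits the 58 channel genes with too few counts to be tested.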

Other observations

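Weakly expressed channel genes were patchy between libraries of 1 group at a share near that of all genes with few counts. Patchy was taken as no count in 1 library and at least 10 in another of the same group. Among genes with 10 to 200 counts over all libraries this held for 20 of 51 channel genes (39.2%) and for 32.8% of all 4097 such genes. Kcnj9, an inward rectifier of brain, had 57, 0 and 56 counts in control and 7, 3 and 18 in Eed cKO. Kcnj6 had 32 counts in Eed cKO 1 and none in the other Eed cKO libraries.

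In 74 of the 104 no stretch of 100 bases of any annotated transcript occurred in another gene's transcripts, and in 7 more than 10% of the stretches did, among them Kcnj13 (35.6%, Gigyf2) and Kcna6 (38.0%, a predicted gene).

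Trpv1, the capsaicin receptor of pain-sensing neurons and no member of the families counted here, had no control count and 33 counts in Eed cKO, too few to be tested.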
